A study of Mus musculus with 8 samples.

Results

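The 10 genes of the growth hormone, STAT5 and IGF1 axis described here were measured by RNA-seq in primary hepatocytes of male mice that overexpressed Trib3 in the liver or carried a control virus. They were taken by symbol as Ghr, Prlr, Stat5a, Stat5b, Socs2, Cish, Igf1, Igfals, Bcl6 and Cux2, and all 10 were found among the 34745 genes in the table. The AAV-Trib3 mice had received adeno-associated virus of serotype AAV8 with mouse Trib3 (4 libraries), and the control mice AAV-GFP (4 libraries). The genotype label is wild type throughout. The protocol, worded for AAV-Trib3 and attached to every sample, gives males injected at an age of 6 weeks and a wait of 4 weeks before cell isolation. The labels name neither the promoter of the vector nor the strain, and do not say whether each library came from a separate mouse, so the p-values rest on variation among libraries that may in part be technical.

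Growth hormone from the pituitary binds its receptor GHR on hepatocytes, which activates the kinase JAK2 and the transcription factors STAT5A and STAT5B, of which STAT5B is the main form in liver. Active STAT5 enters the nucleus and induces the growth factor gene Igf1, its plasma carrier gene Igfals and the feedback inhibitor genes Socs2 and Cish. Male mice release growth hormone in pulses and females more continuously, and this pattern sets much of the sex difference of liver gene expression, through factors that include the repressors BCL6, more abundant in male mouse liver, and CUX2, more abundant in female mouse liver.

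The libraries held 11350442 to 15361128 counts, and levels are given as CPM (read counts relative to library size, after TMM scaling). Trib3 itself was at 27.9, 62.6, 67.2 and 20.2 CPM in AAV-Trib3 replicates 1 to 4, against 2.68, 1.11, 2.46 and 3.36 CPM in AAV-GFP replicates 1 to 4. The groups did not overlap, and the log2 difference was 4.17 ± 0.47 (SE; edgeR adjusted p = 0.0675, DESeq2 adjusted p = 1.32e-17, limma-voom adjusted p = 0.757). Hepatocyte markers summed to 87220 to 140900 CPM in AAV-Trib3 hepatocytes and 92490 to 158200 CPM in AAV-GFP hepatocytes over the 12 genes listed, and 0 of 10 lymphocyte markers were high enough to be tested. Of 8 cholangiocyte markers 3 were tested, all 3 higher with AAV-Trib3 (median log2 difference 0.95). In edgeR 2 of them were higher at an unadjusted p under 0.05, as were 1.36% of all tested genes. The 8 summed to 12.7 to 37.7 CPM in AAV-Trib3 hepatocytes and 11.1 to 14.2 CPM in AAV-GFP hepatocytes. Endothelial markers (11 of 11 tested, 5 higher, 6 lower) summed to 49.5 to 75.6 CPM and 20.4 to 104 CPM in the same order of groups, and stellate cell markers (6 of 13 tested, 2 higher, 4 lower) to 18.7 to 29.6 CPM and 5.49 to 53.1 CPM. None of these markers was called, and their part in the results was not tested. The Y-linked gene Ddx3y had 422 to 1311 counts in all 8 libraries, as the label male implies, while Xist had at most 25. AAV-GFP replicate 2 stood apart, with 32.03% of its counts from the mitochondrial genome (14.9% to 18.5% in the other 7) and a TMM factor of 0.699 (0.973 to 1.153 in the other 7).

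The comparison of AAV-Trib3 with AAV-GFP hepatocytes asked what raised Trib3 does to these transcripts. None of the 9 tested axis genes was called (edgeR's quasi-likelihood test, Benjamini-Hochberg adjusted p = 1 for each), where 0% of the 11036 tested genes were called. At an unadjusted p under 0.05 edgeR listed 0 of the 9, against 3.14% of all tested genes. DESeq2 called 0 of the 9 and 0.154% of all genes, and limma-voom called 0 of the 9 and 0% of all genes. The groups overlapped in all 9, and 2.29% of tested genes had groups that did not overlap. The median log2 difference was 0.03 over the 9 and −0.01 over all tested genes, with 5 of the 9 higher and 4 lower. Cux2 was too low in nearly all libraries to be tested.

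**Figure D1:**
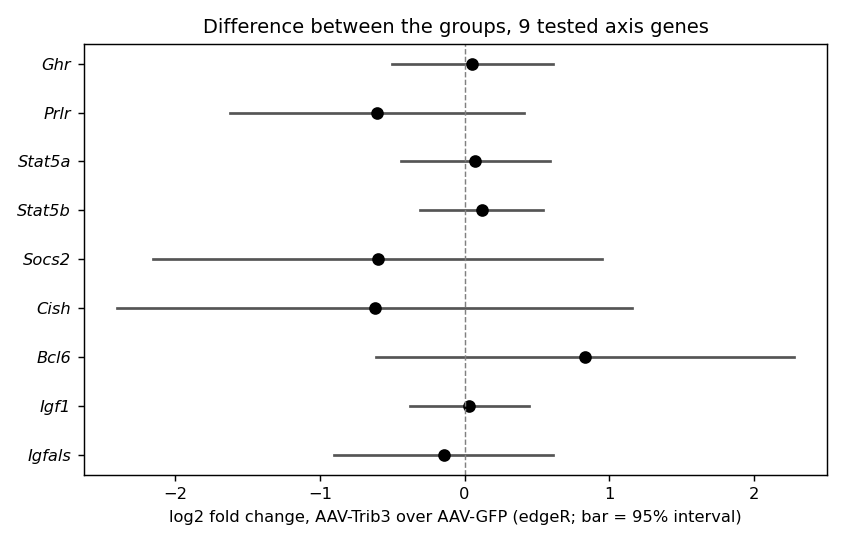
Log2 fold change of AAV-Trib3 over AAV-GFP (x axis) for the 9 tested axis genes (y axis), as edgeR estimates with 95% intervals computed from its F statistic. All 9 intervals include 0. They are narrowest for Igf1, from −0.38 to 0.45, and widest for Cish, from −2.40 to 1.16.

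How closely the data bound a difference varied widely among the genes. For Igf1 the log2 difference was 0.03 ± 0.18 (SE), with a 95% interval of −0.38 to 0.45. For Cish it was −0.62 ± 0.79, with an interval of −2.40 to 1.16. The same contrast showed in the spread between libraries of a group. The within-group SD of log2 CPM was 1.38 for Cish, 1.19 for Bcl6 and 1.17 for Socs2, larger than in 98.8%, 97.8% and 97.6% of tested genes. It was 0.24 for Igf1, larger than in 33.0%, beside a median of 0.30 over all tested genes. The most variable genes were thus the feedback inhibitors and the repressor, while Igf1 was among the steadier transcripts.

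**Figure D2:**
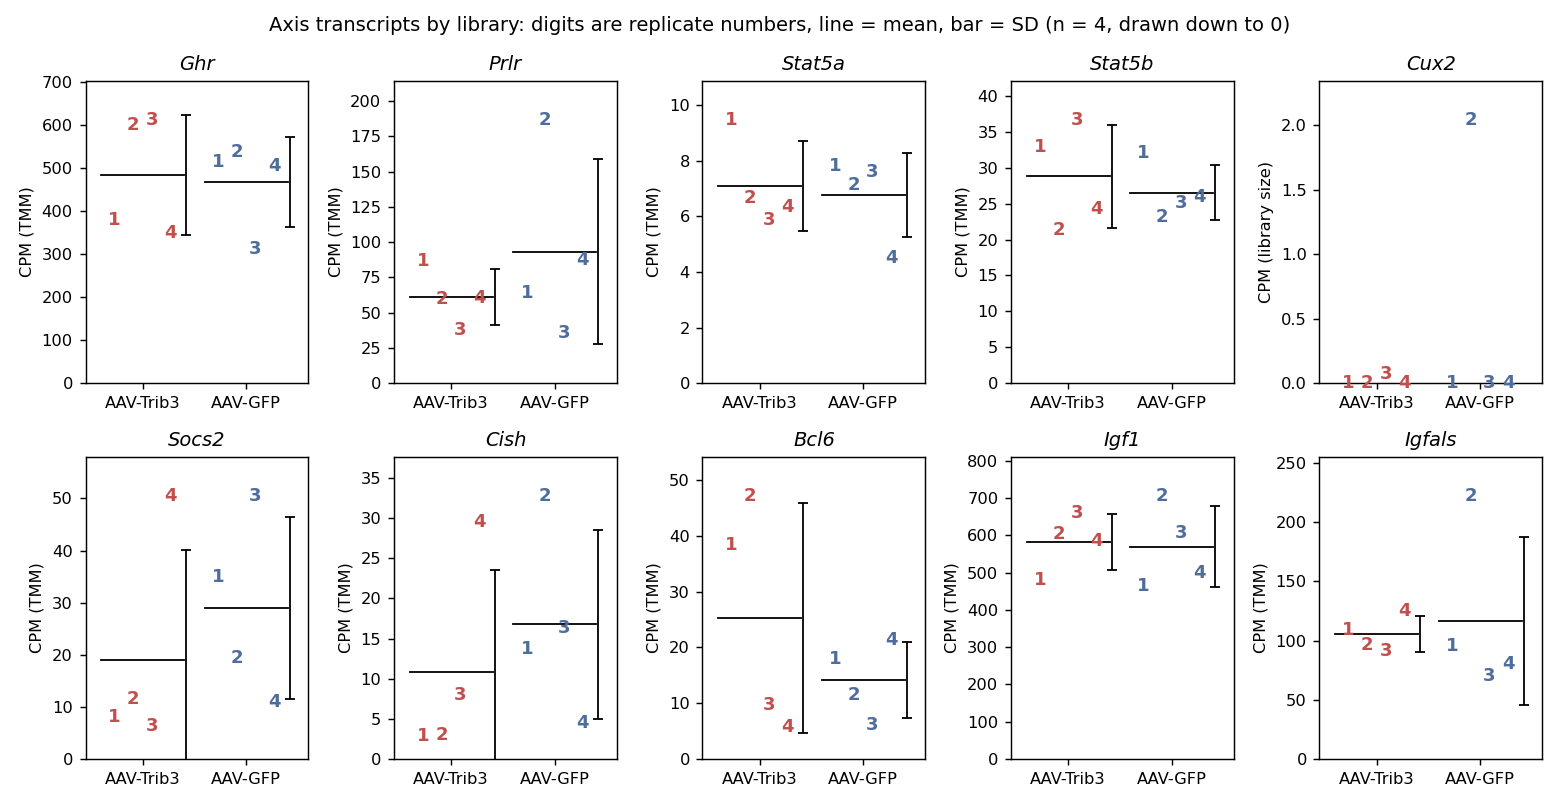
CPM (y axes, from 0) of the 10 axis genes in each library, AAV-Trib3 left and AAV-GFP right. Digits are replicate numbers, horizontal lines are means and bars are SDs (n = 4 each); Cux2 is per library size without TMM. Socs2, Cish and Bcl6 scatter over both groups, Igf1 lies between 465 and 705 CPM, and Cux2 rises above 0.1 CPM in AAV-GFP replicate 2 only.

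The receptor gene Ghr, on the minus strand of chromosome 15 (chr15:3317760-3583492 in mm10), was at 379.9, 599.8, 611 and 349 CPM in AAV-Trib3 replicates 1 to 4. In AAV-GFP replicates 1 to 4 it was at 514, 537, 311 and 504.3 CPM. The groups overlapped fully, with replicates 1 and 4 of AAV-Trib3 and replicate 3 of AAV-GFP on the low side. Means were 485 ± 139.8 CPM (SD, n = 4) in AAV-Trib3 hepatocytes, against 467 ± 104 CPM (SD, n = 4) in AAV-GFP hepatocytes, a log2 difference of 0.05 ± 0.25 (SE). Prlr encodes the prolactin receptor, which also signals through STAT5, and lies on the plus strand of the same chromosome (chr15:10177238-10349180). It was at 86.6, 59.96, 37.7 and 60.4 CPM in AAV-Trib3 hepatocytes, against 63.7, 186, 35.9 and 87.3 CPM in AAV-GFP hepatocytes. AAV-GFP replicate 2 was the highest in Prlr and the other 7 libraries overlapped between the groups. The log2 difference of Prlr was −0.61 ± 0.45 (SE), and −0.02 without that library. Without TMM scaling, AAV-GFP replicate 2 had 130.2 CPM of Prlr and was still the highest of the 8.

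The neighbouring genes Stat5a (plus strand, chr11:100859351-100885169) and Stat5b (minus strand, chr11:100780731-100850724) encode the signal transducers that both receptors activate. Stat5b was at 32.9, 21.4, 36.6 and 24.3 CPM in AAV-Trib3 replicates 1 to 4, against 32.02, 23.1, 25.1 and 25.9 CPM in AAV-GFP replicates 1 to 4. These values lay within a 1.71-fold range over all 8 libraries, the groups overlapped, and the log2 difference was 0.12 ± 0.19 (SE). Stat5a was lower, at 9.44, 6.67, 5.87 and 6.35 CPM in AAV-Trib3 hepatocytes and 7.80, 7.13, 7.58 and 4.52 CPM in AAV-GFP hepatocytes, a log2 difference of 0.07 ± 0.23 (SE). Per gene length the deposited FPKM of Stat5b were 5.03 ± 1.20 with AAV-Trib3 and 4.53 ± 1.28 with AAV-GFP, and those of Stat5a were 0.731 ± 0.192 and 0.663 ± 0.177 in the same order (SD, n = 4 each). Stat5b thus exceeded Stat5a in every library. The paralogs are similar in sequence, so reads could be split between them, and how such reads were counted is not given in the sources used here.

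Socs2 and Cish encode SH2-domain proteins that bind activated receptors and damp the signal. Socs2 (minus strand, chr10:95385362-95417180) was at 7.98, 11.5, 6.25 and 50.5 CPM in AAV-Trib3 replicates 1 to 4. In AAV-GFP replicates 1 to 4 it was at 35.0, 19.4, 50.4 and 10.9 CPM. AAV-Trib3 replicate 4 reached the level of the highest AAV-GFP library, and the other 3 AAV-Trib3 libraries were near or under the lowest. Means were 19.1 ± 21.1 CPM (SD, n = 4) in AAV-Trib3 hepatocytes, against 28.9 ± 17.4 CPM (SD, n = 4) in AAV-GFP hepatocytes, with a log2 difference of −0.60 ± 0.69 (SE; exact two-sided permutation p = 0.343, where 4 against 4 libraries allow no p below 0.0286). Cish (plus strand, chr9:107296026-107302784) was at 2.80, 2.93, 7.93 and 29.6 CPM in AAV-Trib3 hepatocytes, against 13.7, 32.7, 16.2 and 4.46 CPM in AAV-GFP hepatocytes. It ranged 11.7-fold from the lowest library to the highest, the widest range of the 9 tested members, and the extremes were AAV-Trib3 replicate 1 and AAV-GFP replicate 2. Its lowest values rested on 46 and 40 counts, for AAV-Trib3 replicates 1 and 2. The most counts were 438, for AAV-Trib3 replicate 4, followed by 326 for AAV-GFP replicate 2. Which libraries were the extremes depended on TMM scaling. By library size alone they were AAV-Trib3 replicate 2 (2.92 CPM) and AAV-Trib3 replicate 4 (31.5 CPM), with AAV-GFP replicate 2 at 22.9 CPM. The log2 difference of Cish was −0.62 ± 0.79 (SE; exact two-sided permutation p = 0.371). When any 1 library was left out, the log2 difference of Socs2 lay between −1.75 (without AAV-Trib3 replicate 4) and −0.19 (without AAV-GFP replicate 3). That of Cish lay between −1.88 (without AAV-Trib3 replicate 4) and −0.07 (without AAV-GFP replicate 2), with adjusted p values in edgeR of 0.986 or more in each such fit of Socs2 and 0.967 or more for Cish.

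Bcl6 encodes a zinc-finger repressor that binds sites like those of STAT5, and its gene is on the minus strand of chromosome 16 (chr16:23965052-23988852). It was at 38.4, 47.1, 9.61 and 5.74 CPM in AAV-Trib3 replicates 1 to 4, against 17.9, 11.4, 5.99 and 21.2 CPM in AAV-GFP replicates 1 to 4. The AAV-Trib3 group held both the 2 highest values and the lowest of the 8, so that all AAV-GFP libraries lay within its range. Means were 25.2 ± 20.6 CPM (SD, n = 4) in AAV-Trib3 hepatocytes, against 14.1 ± 6.8 CPM (SD, n = 4) in AAV-GFP hepatocytes, and the log2 difference was 0.83 ± 0.64 (SE; 0.33 without AAV-Trib3 replicate 2 and 1.16 without AAV-Trib3 replicate 4).

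Cux2, a homeobox repressor of male-biased genes that is typical of female mouse liver, is on the minus strand of chromosome 5 (chr5:121856366-122050102). Its counts were 0, 0, 1 and 0 over AAV-Trib3 replicates 1 to 4 and 0, 29, 0 and 0 over AAV-GFP replicates 1 to 4. The 29 counts in AAV-GFP replicate 2 were 2.04 CPM by library size, and counting error alone gives 1.36 to 2.92 CPM (95%, Clopper-Pearson, exact). In the 6 libraries with 0 counts, the limit that a count of 0 allows (3 counts) lay between 0.195 and 0.264 CPM. These intervals and limits cover counting error only. The female-typical cytochrome P450 gene Cyp2b9, named after its values were seen, also had its reads in that library, with 0, 1, 0 and 0 counts in AAV-Trib3 replicates 1 to 4 and 0, 17, 0 and 1 in AAV-GFP replicates 1 to 4. Cyp2b13, Cyp3a41a and Cyp3a41b, other genes of female mouse liver, had 0 counts in all 8 libraries. AAV-GFP replicate 2 carried male transcripts like the rest, with 422 counts of Ddx3y and 1 of Xist.

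Set side by side, the libraries fell into a similar order in both inhibitors. The 4 libraries with the most Cish were AAV-Trib3 replicate 4 and AAV-GFP replicates 1, 2 and 3, and these 4 were also the highest in Socs2. So 3 of the 4 highest libraries were AAV-GFP and 3 of the 4 lowest AAV-Trib3, with AAV-Trib3 replicate 4 and AAV-GFP replicate 4 as the exceptions. In the same 4 libraries Bcl6 was at most 17.9 CPM, and in 3 of the other 4 it was at least 21.2 CPM. AAV-Trib3 replicate 3 was the exception, low in Cish, in Socs2 and in Bcl6. The ratio of Bcl6 to Cish was 13.7, 16.1, 1.21 and 0.194 in AAV-Trib3 replicates 1 to 4 and 1.31, 0.350, 0.369 and 4.77 in AAV-GFP replicates 1 to 4. It thus spanned both extremes within AAV-Trib3.

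**Figure D3:**
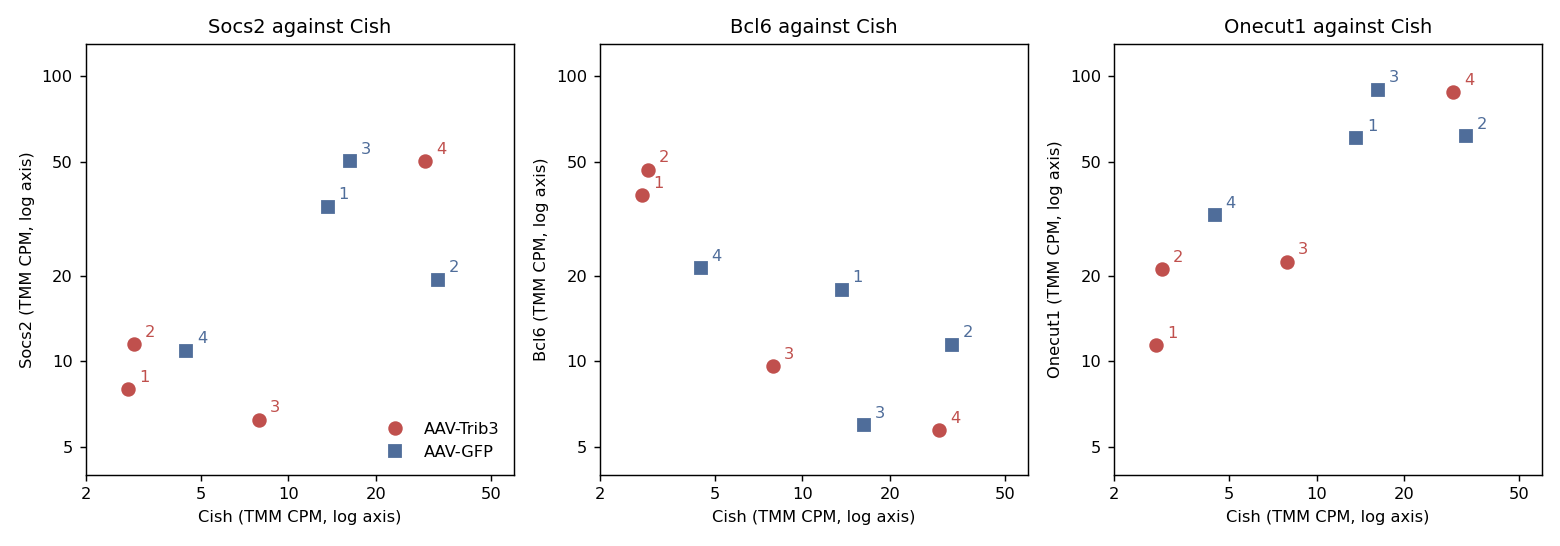
Socs2, Bcl6 and Onecut1 (y axes) against Cish (x axes) in the 8 libraries, in CPM on log axes; circles are AAV-Trib3, squares AAV-GFP, and digits replicate numbers. Socs2 and Onecut1 are highest in the 4 libraries with the most Cish, while Bcl6 is highest in AAV-Trib3 replicates 1 and 2, where Cish is 2.80 and 2.93 CPM.

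All 36 pairs of the 9 tested members were compared over the 8 libraries on log2 CPM, and those described were picked for their values. Cish and Bcl6 had the strongest relation, with Pearson's r = −0.834 (exact permutation p = 0.015, adjusted over the 36 pairs 0.473) and Spearman's rho = −0.786 (exact permutation p = 0.0279, adjusted 0.935). Without the 2 libraries farthest from the median of Cish, r was −0.591. It was −0.948 over the 4 AAV-Trib3 libraries, −0.570 over the 4 AAV-GFP libraries and between −0.898 and −0.777 when any 1 library was left out. Socs2 and Cish had r = 0.73 (exact permutation p = 0.0513, adjusted 0.615) and rho = 0.69 (exact permutation p = 0.0694, adjusted 0.935), and r = 0.605 without the 2 libraries farthest in Socs2. Prlr and Igfals had r = 0.798 (exact permutation p = 0.0263, adjusted 0.473) and rho = 0.524 (exact permutation p = 0.197, adjusted 0.935), but r was −0.032 without the 2 libraries farthest in Prlr, so it rested on those. No pair passed the adjustment.

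Onecut1 encodes HNF6, a liver transcription factor that growth hormone is known to induce, and its order of libraries was similar but not the same. It was at 11.4, 21.1, 22.4 and 88.0 CPM in AAV-Trib3 replicates 1 to 4, against 60.9, 61.8, 89.9 and 32.6 CPM in AAV-GFP replicates 1 to 4. The 4 highest libraries were those with the most Cish and Socs2. Its log2 difference between the groups was −0.78 ± 0.58 (SE; −1.74 without AAV-Trib3 replicate 4 and −0.48 without AAV-Trib3 replicate 1), with an edgeR adjusted p of 1. Acute phase genes had a mean log2 CPM of 9.82, 7.74, 7.66 and 9.62 in AAV-Trib3 replicates 1 to 4 and 7.97, 8.54, 8.46 and 7.51 in AAV-GFP replicates 1 to 4. AAV-Trib3 replicates 1 and 4, highest in acute phase genes, had 2.80 and 29.6 CPM of Cish. AAV-GFP replicates 2 and 3, next highest in acute phase genes, had 32.7 and 16.2 CPM of Cish. The remaining libraries, lower in acute phase genes, had 2.93 to 13.7 CPM of Cish. The part of inflammation in the Cish values was not tested. The 14 macrophage and Kupffer cell markers summed to 116, 13.0, 27.8 and 75.5 CPM in AAV-Trib3 hepatocytes and 14.8, 92.6, 10.1 and 85.0 CPM in AAV-GFP hepatocytes. Of the 14, 13 were tested, with 11 higher and 2 lower with AAV-Trib3 (median log2 difference 0.28), and none of these 13 was called. Libraries low in these markers included AAV-GFP replicates 1 and 3, which were high in Socs2, and AAV-Trib3 replicate 2, which was low. In bulk RNA, fewer cells of a type and less RNA per cell cannot be told apart.

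**Figure D4:**
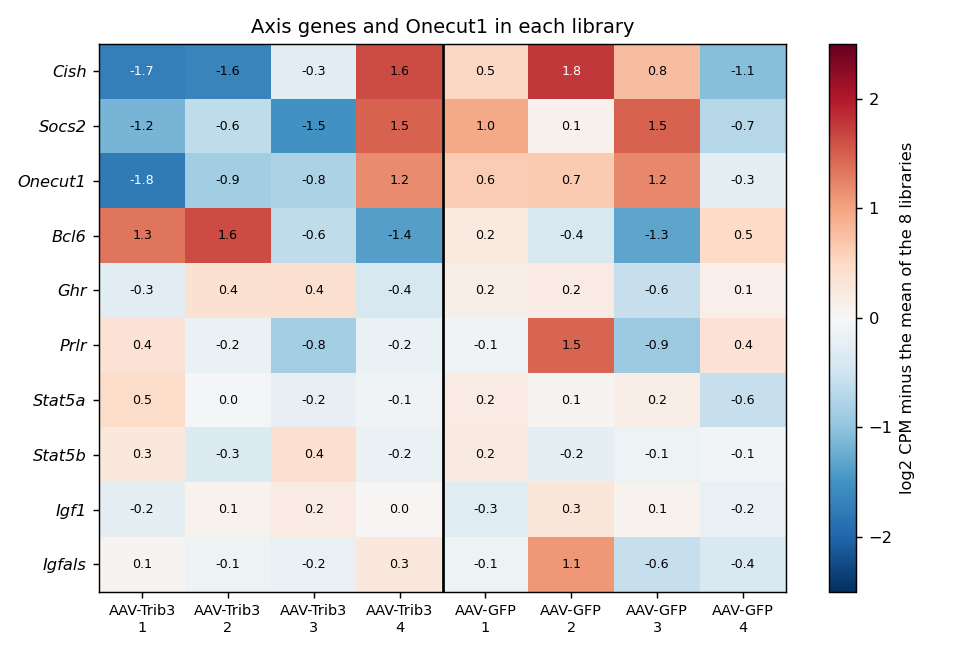
Log2 CPM minus the mean of the 8 libraries (colour and printed value) for Cish, Socs2, Onecut1, Bcl6 and the other tested axis genes (rows) in AAV-Trib3 and AAV-GFP replicates 1 to 4 (columns). Cish, Socs2 and Onecut1 are above their means together in AAV-Trib3 replicate 4 and AAV-GFP replicates 1, 2 and 3, Bcl6 runs mostly the other way, and Igf1 stays near its mean.

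Because Cish and Bcl6 ran opposite to each other, their start regions were searched for the STAT-type motif TTCNNNGAA, which reads the same on both strands. RefSeq windows of 300 bases (250 before to 50 after a start, GRCm38.p6, the mm10 assembly) were found for 9 of the 10 members, all but Socs2, with 18 windows in all. The motif was in 6 of these 18 windows, those of Cish, Bcl6, Igfals and Prlr, and in 8.3% of the 32851 windows of all genes. The Cish window (chr9:107296409-107296708, plus strand) held it 2 times, which 0.457% of all windows do or exceed, at the RefSeq start itself and 11 bases after it. This window lies within the annotated Cish gene, which begins at base 107296026, and its start bases were found in GENCODE M21 transcripts. A window at the annotated 5′ end of Bcl6 (chr16:23988803-23989102, minus strand) held it once, at base 133. A second RefSeq start of Bcl6 within the gene, whose bases were not found in GENCODE M21 transcripts, had 3 matches in its window. An Igfals window (chr17:24877981-24878280, plus strand) held it once, at base 193, and the Igf1 window (chr10:87860861-87861160) did not hold it. A match describes these letters only. The windows of the feedback inhibitor, the repressor and the carrier gene are shown in the direction of transcription with the motif in capitals.
Cish: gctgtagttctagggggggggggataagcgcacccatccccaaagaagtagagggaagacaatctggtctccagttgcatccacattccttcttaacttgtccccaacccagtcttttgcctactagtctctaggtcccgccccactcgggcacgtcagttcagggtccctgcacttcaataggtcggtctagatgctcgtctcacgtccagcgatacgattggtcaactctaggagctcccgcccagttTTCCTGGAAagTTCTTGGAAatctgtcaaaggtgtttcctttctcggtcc
Bcl6: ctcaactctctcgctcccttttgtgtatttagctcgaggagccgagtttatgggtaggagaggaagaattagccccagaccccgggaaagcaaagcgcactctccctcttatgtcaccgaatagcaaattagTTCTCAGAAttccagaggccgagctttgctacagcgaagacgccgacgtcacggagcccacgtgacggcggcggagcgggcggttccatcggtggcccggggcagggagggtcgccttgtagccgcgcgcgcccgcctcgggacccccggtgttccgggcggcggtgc
Igfals: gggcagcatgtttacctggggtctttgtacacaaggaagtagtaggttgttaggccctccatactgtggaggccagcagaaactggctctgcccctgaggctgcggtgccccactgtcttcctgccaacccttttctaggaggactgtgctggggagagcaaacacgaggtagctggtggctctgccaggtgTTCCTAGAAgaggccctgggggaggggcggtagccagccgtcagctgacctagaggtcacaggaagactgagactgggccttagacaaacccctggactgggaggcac

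Igf1, the gene of the growth factor that liver secretes into blood, is on the plus strand of chromosome 10 (chr10:87858265-87937042). It was at 479, 604, 661 and 584 CPM in AAV-Trib3 replicates 1 to 4, against 465, 705, 606 and 500.1 CPM in AAV-GFP replicates 1 to 4. The groups overlapped, and the highest and lowest values were both in AAV-GFP. Means were 582 ± 75.7 CPM (SD, n = 4) in AAV-Trib3 hepatocytes, against 569 ± 109 CPM (SD, n = 4) in AAV-GFP hepatocytes, and over the 8 libraries Igf1 ranged 1.52-fold. After TMM scaling, AAV-Trib3 replicate 1, lowest in Cish, had 479 CPM of Igf1. AAV-GFP replicate 2, highest in Cish on the same scale, had 705 CPM, the most of the 8. By library size alone, AAV-GFP replicate 2 had 492.9 CPM of Igf1, less than AAV-Trib3 replicate 1 (512.5 CPM). The most was then in AAV-GFP replicate 3 (646.1 CPM). Cish and Igf1 had r = 0.445 (exact permutation p = 0.254, adjusted over the 36 pairs 0.972) and rho = 0.476 (exact permutation p = 0.243, adjusted 0.935), and r = 0.455 without the 2 libraries farthest in Cish. Within the groups r was 0.365 over AAV-Trib3 and 0.733 over AAV-GFP libraries.

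Igfals encodes the acid-labile subunit, which holds IGF1 in a large complex in plasma. Its gene is on the plus strand of chromosome 17 (chr17:24878770-24882008), a shorter span than the 24865997 to 24882010 of GENCODE M21. It was at 109, 96.1, 91.5 and 125 CPM in AAV-Trib3 hepatocytes, against 95.1, 222, 69.8 and 79.8 CPM in AAV-GFP hepatocytes. AAV-GFP replicate 2 was again the highest, and the other 3 AAV-GFP libraries were at or under the middle of the AAV-Trib3 values. The log2 difference of Igfals was −0.14 ± 0.34 (SE). It was 0.38 without AAV-GFP replicate 2 and 0.04 with library size alone.

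Per gene length, the members fell into a high and a low tier. In the deposited FPKM, averaged over the 8 libraries, Igfals (50.7), Igf1 (43.6) and Ghr (39.3) formed the high tier. Their ranges over the libraries overlapped, from 35.3 to 73.5 FPKM for Igfals, 37.2 to 49.2 for Igf1 and 27.5 to 49.4 for Ghr. Next came Stat5b (4.78), Prlr (3.25), Bcl6 (2.70), Socs2 (1.79), Cish (1.21) and Stat5a (0.697), each overlapping its neighbours in this order. Every Ghr value exceeded every Stat5b value, of which the highest was 6.07 FPKM. Cux2 was at most 0.147 FPKM, below every value of Stat5a, of which the lowest was 0.499 FPKM.

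Genes with the most similar course over the 8 libraries were sought among 7157 genes whose average log2 CPM was 3 or more. For Igf1 they were Dnajc25 (Pearson's r = 0.923), Smpd4 (0.908) and Arfip2 (0.901). For Cish they were Rps6kb2 (0.942), Gbp11 (0.925) and Fam3c (0.919), and for Socs2 they were Map1lc3b (0.947), Tsr1 (0.928) and Fcf1 (0.923). These values describe 8 libraries and were the highest of 7157.

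The kinase, phosphatases and other inhibitors around the receptor showed no call either. Of 11 such genes 10 were tested, with 3 higher, 7 lower, 0 called in edgeR and 0 at an unadjusted p under 0.05, and a median log2 difference of −0.04 beside −0.01 over all tested genes. Jak2, the receptor's kinase, averaged 12.1 ± 1.5 CPM (SD, n = 4) in AAV-Trib3 hepatocytes, against 12.2 ± 1.9 CPM (SD, n = 4) in AAV-GFP hepatocytes. Socs3, an inhibitor that cytokines of inflammation induce, was at 14.8, 28.4, 15.02 and 21.4 CPM in AAV-Trib3 hepatocytes, against 23.5, 11.7, 21.2 and 28.9 CPM in AAV-GFP hepatocytes. Its groups overlapped. Among those lowest in p in this list were Socs7 and the phosphatase genes Ptpn1 and Ptpn6, though none was small (edgeR unadjusted p = 0.317, 0.362 and 0.454). Their log2 differences were 0.16 ± 0.16, 0.20 ± 0.21 and 0.17 ± 0.22 (SE). When any 1 library was left out, they ranged over 0.04 to 0.23 for Socs7, 0.04 to 0.36 for Ptpn1 and −0.02 to 0.27 for Ptpn6.

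Of 14 genes for IGF-binding proteins and receptors 7 were tested, with 3 higher, 4 lower, 0 called and a median log2 difference of −0.06. Igfbp1, a binding protein gene that insulin represses and fasting raises, was at 183, 189, 600.1 and 311 CPM in AAV-Trib3 hepatocytes, against 887, 114, 409 and 595 CPM in AAV-GFP hepatocytes. It was spread widely in both groups, and its log2 difference was −0.64 ± 0.58 (SE; leaving out AAV-Trib3 replicate 3 gave −1.14 and leaving out AAV-GFP replicate 1 gave −0.22). Igfbp5, Igf2r and Igfbp2 had log2 differences of 1.05 ± 0.53, −0.19 ± 0.17 and −0.21 ± 0.29 (SE). Without AAV-GFP replicate 2 those of Igfbp5 and Igfbp2 were 1.62 and 0.05. The group means of Igfbp5 were 4.10 and 2.03 CPM in AAV-Trib3 hepatocytes and AAV-GFP. Igf1r, the receptor of IGF1, had at most 5 counts in any library.

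All 10 listed transcription factors and receptors tied to growth hormone in liver were tested, with 4 higher, 6 lower and 0 called (median log2 difference −0.11). Besides Onecut1, Egfr and Lifr were among those lowest in p in this list, though neither was small (edgeR unadjusted p = 0.217 and 0.259). Egfr, a growth factor receptor gene that growth hormone maintains in mouse liver, averaged 924 ± 257 CPM (SD, n = 4) in AAV-Trib3 hepatocytes, against 1185 ± 315 CPM (SD, n = 4) in AAV-GFP hepatocytes. Its log2 difference was −0.36 ± 0.27 (SE; −0.18 without AAV-Trib3 replicate 1). Lifr, the receptor gene of leukaemia inhibitory factor, had a log2 difference of −0.29 ± 0.24 (SE; leaving out replicate 2 of AAV-Trib3 gave −0.49, and replicate 2 of AAV-GFP −0.15).

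Much of the sex bias of liver genes is an output of the axis, and the 2 classes differed in their median values here. Of 31 female-biased genes 16 were expressed highly enough to be tested, and 13 of these were lower with AAV-Trib3 and 3 higher. None was called in edgeR. At an unadjusted p under 0.05, 8 of the 16 were lower and 0 higher, where 1.78% of all tested genes were lower at that p, and the median log2 difference was −1.25. The other 15 listed genes were too low or not in the table and are not part of these counts. Of 27 male-biased genes 26 were tested, with 14 higher, 12 lower, 0 called, 2 lower at an unadjusted p under 0.05 and a median log2 difference of 0.03. The lists were chosen with earlier results of these data known. Neither the difference between the classes nor the part of growth hormone signalling in it was tested.

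**Figure D5:**
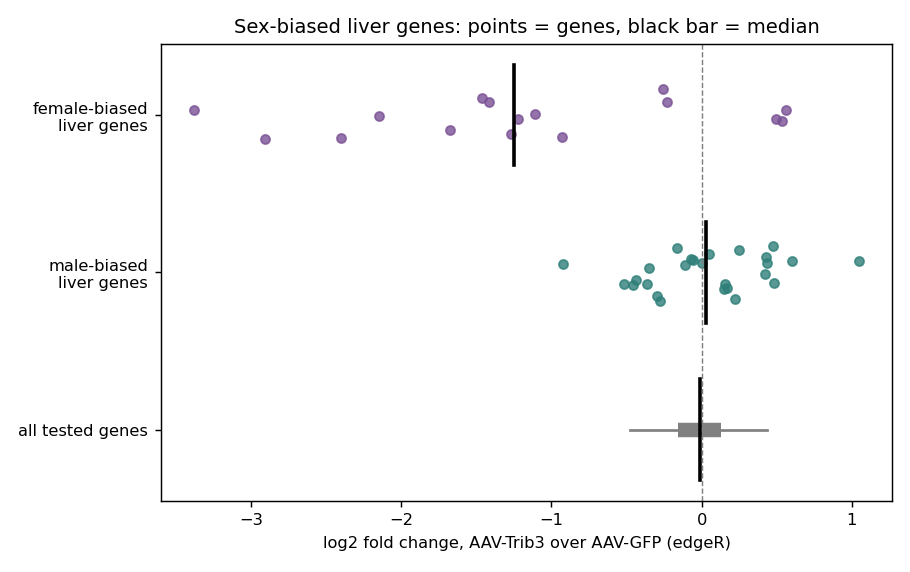
Log2 fold change of AAV-Trib3 over AAV-GFP (x axis) for the 16 tested female-biased and 26 tested male-biased liver genes (points, spread vertically for visibility) with medians as black bars. For all tested genes the thick bar spans the middle 50% and the thin line 5% to 95%; the medians are −1.25, 0.03 and −0.01.

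The female-biased genes with the smallest p were the cytochrome P450 gene Cyp2c40, the hepcidin-family gene Hamp2, the fatty acid transporter gene Cd36 and the P450 gene Cyp2c69. Cyp2c40 was at 4.39, 1.98, 3.20 and 5.88 CPM in AAV-Trib3 hepatocytes, against 11.2, 66.9, 8.74 and 30.2 CPM in AAV-GFP hepatocytes, groups that did not overlap. DESeq2 called it (adjusted p = 0.0012) and edgeR did not (adjusted p = 1). Cyp2c69 was at 1.10, 0.37, 1.30 and 1.55 CPM in AAV-Trib3 hepatocytes, against 2.35, 34.2, 2.24 and 7.14 CPM in AAV-GFP hepatocytes. Both were highest in AAV-GFP replicate 2, the library with Cux2 reads, and are close paralogs whose reads could be split. Without that library the log2 difference of Cyp2c40 was −2.10 and that of Cyp2c69 −1.85, against −2.91 and −3.38 with it. Cd36 was at 14.5, 7.84, 15.3 and 19.9 CPM in AAV-Trib3 hepatocytes, against 58.5, 47.9, 36.4 and 16.1 CPM in AAV-GFP hepatocytes. Hamp2 averaged 1.37 ± 0.56 CPM (SD, n = 4) in AAV-Trib3 hepatocytes, against 4.36 ± 2.33 CPM (SD, n = 4) in AAV-GFP hepatocytes. Cyp4a10, Cyp4a14, Cd36, Acot3 and Acot4 on this list are also known targets of the fatty acid receptor PPAR-alpha, with log2 differences of −1.42 ± 0.71, −2.40 ± 0.73, −1.46 ± 0.39, 0.56 ± 0.61 and 0.54 ± 0.35 (SE). Cyp4a14 was at 292, 253, 69.2 and 180.4 CPM in AAV-Trib3 hepatocytes, against 339, 1619, 2017 and 226 CPM in AAV-GFP hepatocytes, so that AAV-GFP replicates 2 and 3 stood out.

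Among male-biased genes the smallest p-values belonged to Cyp4a12b, Hsd3b5, Mup21 and Susd4. Cyp4a12b, a fatty acid hydroxylase gene, averaged 126 ± 20.5 CPM (SD, n = 4) in AAV-Trib3 hepatocytes, against 174 ± 18.4 CPM (SD, n = 4) in AAV-GFP hepatocytes, a log2 difference of −0.46 ± 0.15 (SE). Its groups did not overlap, though the near-identical Cyp4a12a could share its reads. Hsd3b5, a steroid dehydrogenase gene, was at 64.0, 139, 78.1 and 94.9 CPM in AAV-Trib3 hepatocytes, against 209, 211, 62.3 and 232 CPM in AAV-GFP hepatocytes. The major urinary protein gene Mup21 and the gene Susd4 had log2 differences of 0.60 ± 0.28 and −0.52 ± 0.29 (SE). That of Mup21 was 0.29 without AAV-Trib3 replicate 3, and that of Susd4 −0.17 without AAV-GFP replicate 2. Cyp2d9, a classical male-specific P450 gene, averaged 1866 ± 337 CPM (SD, n = 4) in AAV-Trib3 hepatocytes, against 1859 ± 278 CPM (SD, n = 4) in AAV-GFP hepatocytes.

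Acute phase genes, which inflammation raises in liver while it can dampen growth hormone signalling, numbered 22, all tested, with 16 higher and 6 lower (median log2 difference 0.44), 0 called and 4 higher at an unadjusted p under 0.05 (1.36% of all tested genes). These 4 were Saa3, Saa2, Orm2 and Hpx, with log2 differences of 2.504 ± 0.86, 4.34 ± 1.57, 3.47 ± 1.26 and 0.98 ± 0.38 (SE). Without AAV-Trib3 replicate 1 the log2 difference of Saa3 was 0.83. Their high values were in AAV-Trib3 replicates 1 and 4, the 2 libraries with the most of each; Hpx, the heme-binding hemopexin gene, was at 8730 CPM in AAV-Trib3 replicate 1. In those libraries Ghr was at 379.9 and 349 CPM and Igf1 at 479 and 584 CPM, while in AAV-Trib3 replicates 2 and 3 Ghr was at 599.8 and 611 CPM and Igf1 at 604 and 661 CPM. Within AAV-GFP, replicates 2 and 3 had the highest means of the acute phase genes (mean log2 CPM 8.54 and 8.46). After TMM scaling, replicate 2 had the highest Ghr of its group (537 CPM) and the highest Igf1 of all 8 libraries (705 CPM). Both ranks depended on that scaling. By library size alone, AAV-GFP replicates 1 to 4 had 540.6, 375.3, 331.8 and 580.3 CPM of Ghr. Their Igf1 was then 488.4, 492.9, 646.1 and 575.5 CPM. Replicate 3 had the lowest Ghr of all 8 libraries (311 CPM), with Igf1 at 606 CPM. The part of inflammation in the receptor values was not tested.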

How the data were processed

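Poly(A) RNA of 8 hepatocyte samples was sequenced, per the labels' protocols. The authors deposited whole-number read counts per gene, mapped to mm10 after trimming with Trimmomatic per the submitters' processing notes; for aligner, counter and strand setting: not given in the sources used here. The authors also deposited FPKM values per gene, used here only to compare levels between genes.

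Libraries were grouped by title. Counts were filtered with filterByExpr, scaled by TMM and tested for AAV-Trib3 over AAV-GFP with edgeR 4.0.16 (quasi-likelihood, robust, Benjamini-Hochberg threshold 0.05) in R 4.3.3, after the script was tested on simulated data. DESeq2 1.42.0, limma-voom (limma 3.58.1), other scalings, no filter, a replicate block and leaving out each library were alternatives. Single values had an exact two-sided permutation test over libraries. Genes outside the 10 members were named by the 4 smallest p-values within each list; some of these are not reported here. Other named genes were chosen after their values were seen. The members and lists were chosen with earlier results of these data known. RefSeq start windows were searched on GRCm38.p6.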

Additional observations from a re-analysis of the deposited data

Results flagged for a closer look

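Of 64 sets of 4 libraries examined (a gene in 1 virus group), 12 held a library whose gap to its nearest neighbour was large for the range of the group. The rule flags about 1 in 20 sets of normally distributed values. It was applied here to CPM or counts without logs, and to genes partly named for their p-values. The 12 therefore cannot be set against that rate. Among the axis genes, Ghr was lowest in AAV-GFP replicate 3 (311.3 CPM), Socs2 was highest in AAV-Trib3 replicate 4 (50.45 CPM), Igfals was highest in AAV-GFP replicate 2 (222.1 CPM), and Cux2 had 29 counts in AAV-GFP replicate 2.

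Onecut1 was highest in AAV-Trib3 replicate 4 (87.99 CPM), the library that also stood out in Socs2. Ptpn6 was set apart in AAV-GFP replicate 1 (6.874 CPM). Among sex-biased genes, Hsd3b5 was low in AAV-GFP replicate 3 (62.25 CPM), Hamp2 was high in AAV-Trib3 replicate 3 (2.211 CPM) and Cyp2c69 was high in AAV-GFP replicate 2 (34.24 CPM). Among acute phase genes, the libraries set apart were AAV-Trib3 replicate 1 in Saa3 (68.04 CPM), AAV-GFP replicate 3 in Saa2 (148.9 CPM) and AAV-GFP replicate 2 in Hpx (5297 CPM).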

How the results depend on the processing

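No member was called, and the groups of no tested member were separate, under any alternative run. Over all genes edgeR called 0, DESeq2 called 17, and leaving out 1 library gave 0 to 3 (3 without AAV-GFP replicate 3, 1 each without AAV-Trib3 replicate 4 and AAV-GFP replicate 1). Of 153 alternative log2 differences of members, 141 kept their direction and 12 reversed. Leave-one-out ranges that crossed 0 were −0.096 to 0.185 for Ghr, −0.097 to 0.154 for Stat5a, −0.016 to 0.234 for Stat5b, −0.052 to 0.159 for Igf1, −0.325 to 0.376 for Igfals, −0.019 to 0.266 for Ptpn6 and −0.39 to 0.049 for Igfbp2. Igfals was also 0.044 with library size alone and 0.021 with the replicate block; the cause was not tested. Same-numbered libraries did not deviate together (r −0.267 to −0.032), and the replicate block called 0 genes. Counts for sex-biased genes under alternatives were added after seeing the data. Female-biased genes lower at an unadjusted p under 0.05 numbered 8, 5 with limma-voom, 5 with the replicate block and 6 to 9 leaving out 1 library. All those lower numbered 13 of the 16 tested. With no filter 20 were lower, out of a larger total, as every listed gene with reads was then tested. Of the listed genes 30 were in the table, 3 of them with 0 counts in all libraries. Male-biased genes lower at that p numbered 2, 1 with library size alone, 1 with limma-voom and 1 to 2 leaving out 1 library. Trib3 was called by DESeq2 (adjusted p = 1.32e-17) and by edgeR without AAV-Trib3 replicate 4 (adjusted p = 0.0206), and missed the threshold in edgeR with all libraries (adjusted p = 0.0675) and in limma-voom (adjusted p = 0.757).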
